A study of Mus musculus with 4 samples.

Results

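The haemoglobin genes and 4 genes tied to red blood cells were examined in mouse thymocytes with reduced function of Atg16l1. The 10 member genes were the alpha globin genes Hba-a1 and Hba-a2, the beta globin genes Hbb-b1, Hbb-b2, Hbb-bs and Hbb-bt, and Bpgm, Car2, Alas2 and Gata1. Every probe set whose platform annotation named only these genes was taken, including probe sets shared among haemoglobin genes, which gave 14 of the 45037 probe sets kept. Of these, 8 belong to haemoglobin (4 shared by several genes and 4 of 1 gene) and 6 to the other genes. The genes were chosen because haemoglobin probe sets stood out in the comparison described here, so the members' values are a description, given without p-values, and a count of members past a threshold only restates that choice.

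The set held Affymetrix arrays of total RNA from total thymocytes, taken without sorting, a population made up mainly of maturing T cells. There were 2 arrays from Atg16l1 hypomorph mice and 2 from control mice, all aged 7 weeks, with 1 animal per array. A hypomorph carries an allele that leaves a gene with reduced function. Each group held 1 male and 1 female per the series text, and no label ties a sex to an array. The labels call the animals independent and give neither the strain nor how the allele was made, and sex could not be entered in the fit.

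Haemoglobin is a tetramer of alpha and beta globin chains, each holding a haem group that binds oxygen. The globin genes are transcribed in erythroid precursors in the bone marrow, where GATA1 and KLF1 are among the main activators, and their mRNA persists in reticulocytes, the young red cells that have lost their nucleus. ALAS2 catalyses the first step of haem synthesis in erythroid cells, BPGM makes the 2,3-bisphosphoglycerate that lowers the oxygen affinity of haemoglobin, and CAR2 is a carbonic anhydrase abundant in red cells. The thymus is not a main site of red cell formation. In the mouse the beta globin locus exists in different haplotypes, one carrying Hbb-bs and Hbb-bt, as in C57BL/6, and one carrying Hbb-b1 and Hbb-b2.

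The sequences upstream of the adult globin genes are shown first, because the alpha globin genes share probe sets on the array, as do the beta globin genes. Promoter sequences of 7 of the 10 member genes were found in the RefSeq promoter table of GRCm38.p6, and those of Hbb-b1, Hbb-b2 and Car2 are not shown. The 250 bases before the annotated transcription start were searched on both strands for a GATA motif (any of the strings AGATAA or else AGATAG or else TGATAA or else TGATAG), for CACCC, for CCAAT and for TATAA, which are elements known from globin promoters. Capitals mark the matches, which may overlap or lie next to one another. Hba-a1 lies at chr11:32283422-32283671 on the + strand, Hbb-bs at chr7:103827929-103828178 on the - strand and Hbb-bt at chr7:103813924-103814173 on the - strand, each window read 5′ to 3′ along the gene.
Hba-a1: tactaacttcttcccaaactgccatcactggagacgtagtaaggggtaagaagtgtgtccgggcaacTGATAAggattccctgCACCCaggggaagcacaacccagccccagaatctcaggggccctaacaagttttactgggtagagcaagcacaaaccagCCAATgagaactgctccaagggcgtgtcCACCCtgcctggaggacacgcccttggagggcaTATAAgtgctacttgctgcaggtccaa
Hbb-bs: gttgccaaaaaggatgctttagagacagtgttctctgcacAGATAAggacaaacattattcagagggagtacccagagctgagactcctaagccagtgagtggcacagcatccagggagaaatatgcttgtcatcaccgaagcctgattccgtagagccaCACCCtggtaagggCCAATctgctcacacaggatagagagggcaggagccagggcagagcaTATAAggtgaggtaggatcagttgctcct
Hbb-bt: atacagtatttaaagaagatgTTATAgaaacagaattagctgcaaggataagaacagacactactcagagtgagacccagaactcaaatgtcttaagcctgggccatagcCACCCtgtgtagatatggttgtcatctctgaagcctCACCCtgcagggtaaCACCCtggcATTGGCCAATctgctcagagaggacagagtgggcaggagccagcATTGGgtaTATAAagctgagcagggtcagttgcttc

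The window of Hba-a2 matched that of Hba-a1 at all of 247 aligned bases. The windows of Hbb-bs and Hbb-bt were 73.3% identical over 243 aligned bases, and the longest run they shared was 14 bases. Each of the 4 windows held CACCC together with CCAAT and with TATAA, a combination found in 3.28% of the 32851 promoters of that length in the table. Nothing is read from that share. The elements were searched because globin promoters are known to hold them, and the windows of Hba-a1 and Hba-a2 are nearly the same sequence. Singly, CACCC was present in 52.0% of those promoters, CCAAT in 33.8%, TATAA in 22.8% and the GATA motif in 26.5%. The GATA motif was matched in the windows of Hba-a1, Hba-a2 and Hbb-bs, where it began 183, 186 and 210 bases before the start, and these letters were not matched in the window of Hbb-bt. Of the other members, Alas2 held the GATA motif, CACCC and TATAA, Gata1 held CACCC alone and Bpgm held CCAAT alone. A match is a string of letters and not a measured binding site.

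**Figure D1:**
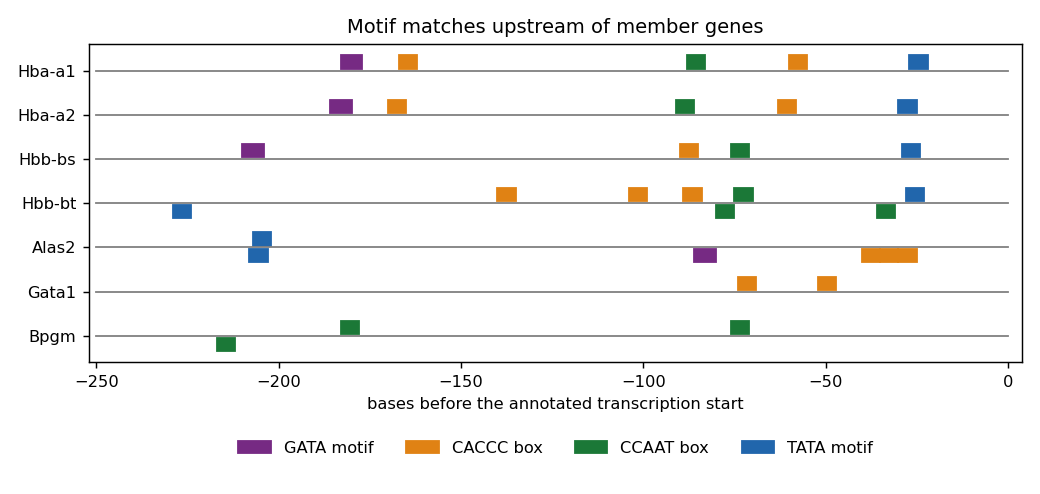
Positions of motif matches in the 250 bases before the annotated transcription start (x axis, bases) of 7 member genes, with blocks above a line on the gene's own strand and blocks below it on the opposite strand. The 4 adult globin windows each hold a TATA motif within 30 bases of the start and a CCAAT box and a CACCC box upstream of it.

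The arrays' median deposited signals ranged from 23.5 to 38.4, and signals were therefore scaled to a common median. All signals given below are these scaled signals. Differences are means of log2(signal + 2.29), hypomorph minus control, so that a difference of 1 is close to a doubling for bright probe sets and is understated for dim ones. Probe sets with a mean at or above the median of all such means, near a signal of 26.9, were tested with limma, 22519 in number, of which 11 were member probe sets. After scaling, the median log2 difference over tested probe sets was 0.16, so each member's difference is also given relative to that median, which was 0.01 with quantile normalization and 0.51 without scaling. Atg16l1 itself read 80.8 and 74.2 on the hypomorph arrays, against 225 and 252 on the control arrays (log2 change -1.59 ± 0.18 SE, adjusted p 0.0127 in limma). That value comes from the brighter of its 2 probe sets. The dim one was not tested and read 5.64 and 8.57 on the hypomorph arrays, against 13.0 and 0.466 on the control arrays, so that the groups overlapped (log2 difference 0.51). Without control replicate 2 the log2 change of the brighter one was -1.51 and its adjusted p 0.0502. The thymocyte markers summed to 38497 and 44724 on the hypomorph arrays, against 37903 and 43222 on the control arrays, over 12 genes named there, among them Cd4, Cd8a, Rag1 and Dntt.

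Alpha globin signal was higher in hypomorph thymocytes on all 3 probe sets shared by Hba-a1 and Hba-a2. The probe set 1428361_x_at read 872 and 1155 on the hypomorph arrays, against 412 and 467 on the control arrays. Both hypomorph animals were above both controls, and the means on the log2 scale were 9.97 ± 0.29 and 8.78 ± 0.13 (SD, n = 2 each). The log2 difference was 1.19, a 2.28-fold difference, and lay 1.02 above the median of the tested probe sets. The probe set 1452757_s_at read 771 and 918 on the hypomorph arrays, against 286 and 343 on the control arrays. Again the groups did not overlap, with a log2 difference of 1.42 (2.68-fold), or 1.26 above the median. The dimmer 1417714_x_at read 67.4 and 94.9 on the hypomorph arrays, against 21.3 and 33.7 on the control arrays, a log2 difference of 1.50 (2.83-fold), or 1.34 above the median, the largest among the member probe sets. Its control mean, 4.86 on the log2 scale, was just below the limit for testing of 4.87, and its hypomorph mean, 6.36, above it. The suffixes x and s mark probe sets that match several transcripts, so the shares of Hba-a1 and Hba-a2 in these signals cannot be separated. In a bulk sample, more cells of a type and more RNA per cell cannot be told apart either.

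Beta globin signal was also higher in the hypomorph. The probe set 1417184_s_at, shared by Hbb-bt, Hbb-bs, Hbb-b2 and Hbb-b1, read 451 and 532 on the hypomorph arrays, against 213 and 234 on the control arrays. The means on the log2 scale were 8.94 ± 0.17 in hypomorph and 7.82 ± 0.10 in control thymocytes (SD, n = 2 each), a log2 difference of 1.12 (2.18-fold) and 0.96 above the median. Because 1 probe set stands for 4 genes, it does not show which beta globin genes the mice carried or expressed.

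The 4 shared probe sets moved together from array to array. Summed over them, the signal was 2161 and 2699 on the hypomorph arrays, against 931 and 1078 on the control arrays. Hypomorph replicate 2 had the highest and control replicate 1 the lowest scaled value on each of the 4. The order of the hypomorph arrays depended on the scaling. In the deposited signals, hypomorph replicate 1 read 1167, 1032 and 603 on 1428361_x_at, 1452757_s_at and 1417184_s_at, against 1102, 876 and 507 on hypomorph replicate 2. On 1417714_x_at they read 90.3 and 90.5. The log2 distance between the alpha probe set 1428361_x_at and the beta probe set was 0.95 and 1.12 on the hypomorph arrays, against 0.95 and 0.99 on the control arrays. It thus spanned 0.17 over the 4 arrays, while the probe sets themselves spanned 1.48 and 1.31. For 1452757_s_at the distance to the beta probe set was 0.77 and 0.79 on the hypomorph arrays, against 0.42 and 0.55 on the control arrays. For 1417714_x_at it was -2.70 and -2.46 on the hypomorph arrays, against -3.19 and -2.72 on the control arrays. The difference between groups in alpha relative to beta signal was therefore 0.065 on one alpha probe set, 0.30 on another and 0.38 on the dimmest, and these probe sets read the same pair of genes.

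**Figure D2:**
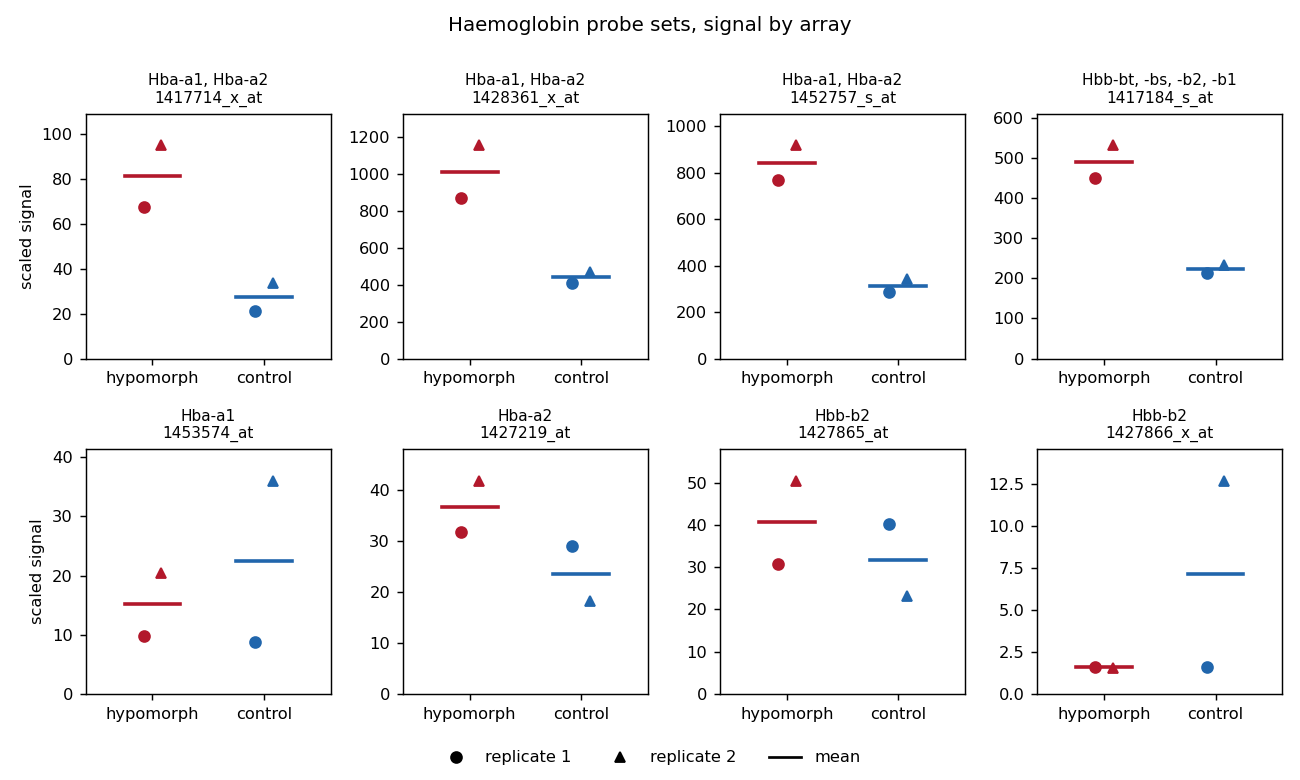
Scaled signal (y axis, starting at 0, its range set for each panel) of the 8 haemoglobin probe sets in hypomorph and control thymocytes, with a circle for replicate 1, a triangle for replicate 2 and a line for the mean. In the upper row, the shared probe sets, both hypomorph arrays lie above both control arrays, and in the lower row, the probe sets of 1 gene, no signal is above 50.4.

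The 4 probe sets assigned to 1 haemoglobin gene were dim and did not move as one. The Hba-a2 probe set 1427219_at read 31.7 and 41.7 on the hypomorph arrays, against 28.9 and 18.1 on the control arrays, a log2 difference of 0.61 (0.45 above the median), which was 0.31 without control replicate 2. Its control mean, 4.66 on the log2 scale, was below the limit for testing of 4.87, and its hypomorph mean, 5.27, above it. The Hbb-b2 probe set 1427865_at had 30.8 and 50.4 on the hypomorph arrays, against 40.2 and 23.2 on the control arrays, so that the groups overlapped, with a log2 difference of 0.34 (0.18 above the median). Leaving out hypomorph replicate 2 brought that difference to 0.0045 and leaving out control replicate 2 brought it to -0.027. The other Hbb-b2 probe set, 1427866_x_at, had 1.61 and 1.55 on the hypomorph arrays, against 1.61 and 12.7 on the control arrays, below the limit for testing. The Hba-a1 probe set 1453574_at had 9.77 and 20.5 on the hypomorph arrays, against 8.82 and 36.0 on the control arrays, and was not tested either. For both of these, control replicate 2 set the sign or the size of the difference, which was -0.98 and -0.32 with all arrays (-1.14 and -0.48 relative to the median) and -0.010 and 0.58 without that array.

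Over all 8 haemoglobin probe sets, 6 of them tested, the median log2 difference was 0.87, against 0.16 over all tested probe sets. It was 1.30 over the 4 shared probe sets and 0.013 over the 4 of 1 gene, so 0.87 describes neither kind. In 5 of the 8 both hypomorph values lay above both control values, where 40.6% of all tested probe sets did so. These 5 were all tested, 1417714_x_at and 1427219_at only through the group where they were high. In 1, the untested 1427866_x_at, both lay below, where 7.7% of tested probe sets did so. Its signal was 1.61 on both hypomorph replicate 1 and control replicate 1, so that order is not read. Among the 6 that entered the fit, 3 passed the threshold of 0.05 on limma's adjusted p, all of them higher. The shares over all tested probe sets were 0.0533% in either direction, 0.04% higher and 0.0133% lower. As the genes were chosen from this comparison, nothing is read from that count. The 3 were 1428361_x_at, 1452757_s_at and 1417184_s_at. Their number was 1 without hypomorph replicate 2, 1 without control replicate 1, 1 with centring on the tested probe sets and 0 with quantile normalization, without the variance trend or without the filter on dim probe sets. Their log2 differences stayed between 0.92 and 1.77 under every alternative. Between the 2 hypomorph arrays the shared probe sets differed by 0.24 to 0.48 on the log2 scale and between the 2 control arrays by 0.14 to 0.61, beside medians of 0.20 and 0.19 over all tested probe sets.

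Bpgm was higher in hypomorph thymocytes on its 3 probe sets, by less than on the 4 shared haemoglobin probe sets. The probe set 1415864_at read 260 and 271 on the hypomorph arrays, against 123 and 196 on the control arrays. The log2 difference was 0.76 (1.70-fold), or 0.60 above the median of the tested probe sets. The probe set 1415865_s_at had 279 and 284 on the hypomorph arrays, against 152 and 255 on the control arrays (log2 difference 0.51, or 0.35 above the median), and 1448119_at had 173 and 148, against 104 and 144 (0.38, or 0.22 above the median). The groups did not overlap on any of the 3, where 40.6% of all tested probe sets were likewise higher without overlap. The 3 read 1 gene on the same arrays. Control replicate 2 was close to the hypomorph arrays and control replicate 1 stood lower. Without control replicate 1 the log2 differences were 0.43, 0.14 and 0.15, beside a median of 0.12 over tested probe sets in the same setting.

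Car2 signals were 119 and 168 on the hypomorph arrays, against 91.6 and 129 on the control arrays. The groups overlapped, and the log2 difference of 0.38 was 0.21 above the median. It was 0.13 without hypomorph replicate 2 and 0.13 without control replicate 1. Gata1, which encodes the erythroid activator named above and is also active in megakaryocytes, mast cells and eosinophils, had 27.8 and 29.5 on the hypomorph arrays, against 47.5 and 29.1 on the control arrays. Its log2 difference of -0.36, or -0.52 relative to the median, came with the single high value of control replicate 1, and it was -0.023 without that array. Alas2 had 7.58 and 4.29 on the hypomorph arrays, against 3.24 and 4.37 on the control arrays, under the limit for testing. Its log2 difference of 0.41, which was 0.24 above the median, became 0.12 once hypomorph replicate 1 was left out.

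**Figure D3:**
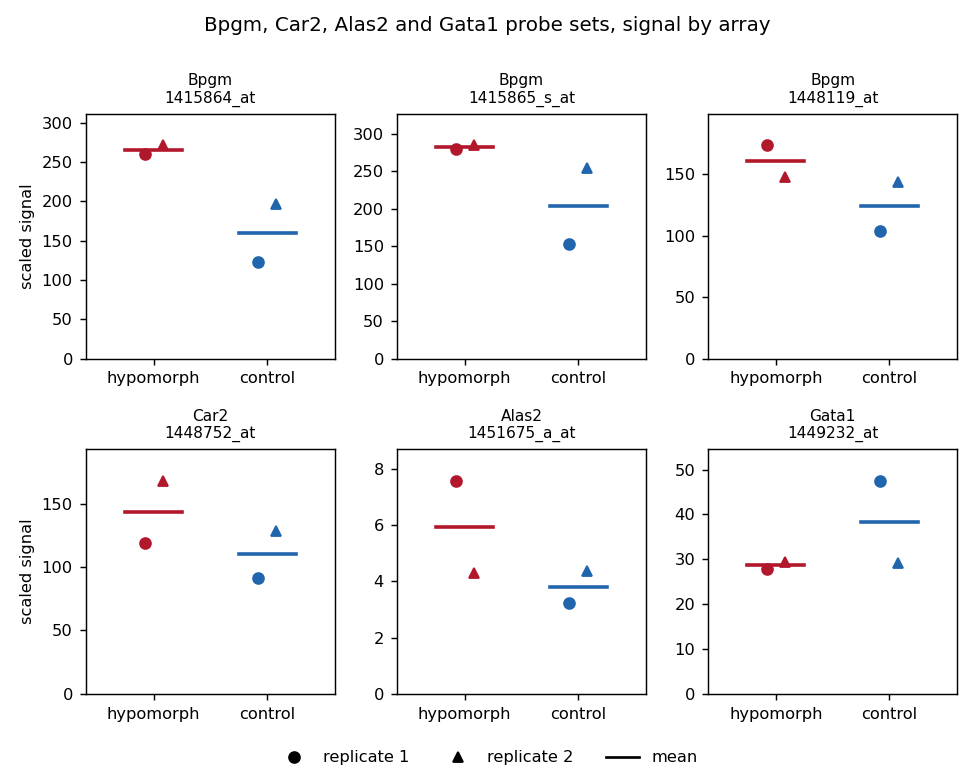
Scaled signal (y axis, starting at 0, its range set for each panel) of the 6 probe sets of Bpgm, Car2, Alas2 and Gata1 in hypomorph and control thymocytes, with a circle for replicate 1, a triangle for replicate 2 and a line for the mean. The hypomorph arrays lie above the control arrays for the 3 Bpgm probe sets, as for 40.6% of all tested probe sets. Control replicate 2 is closest to them, and the groups overlap for the other 3.

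Few genes passed the test at all, none of them from lists of other erythroid genes, and many red cell genes were too dim to be tested. Across 8 lists of globin, haem, transcription factor, membrane, iron, reticulocyte and clearance genes, 98 of 114 genes were named on the array and 62 were tested, each by its brightest tested probe set. Of these, 0 had an adjusted p under 0.05 in limma in either direction, where 0.0293% of the 10231 tested genes did, and 9 had an unadjusted p under 0.05, where 13.7% of tested probe sets did. Their median log2 difference was 0.14, against 0.19 over all tested genes, with 28 above and 34 below that value. Both hypomorph values lay above both controls for 28 of the 62 and below them for 5, beside 47.6% and 5.26% of all tested genes. The count of called genes was 0 under every alternative that was run. With so small a share called over all tested genes, a count of 0 does not set these genes apart. The other 36 named genes lay below the limit for testing, among them Klf1, Slc4a1, Epb42 and Rhag. Some tested genes were bright in these total thymocytes. Myb read 3818 and 4957 on the hypomorph arrays, against 4396 and 4569 on the control arrays. The median over the lists is therefore not a reading of red cells alone.

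The markers that define erythroid cells were mostly dim. Of 9 such genes fixed as markers, 6 were named on the array and 4 of these lay below the limit for testing, namely Alas2, Epb42, Klf1 and Slc4a1. Klf1, the activator of beta globin, read 9.96 and 6.14 on the hypomorph arrays, against 1.20 and 11.6 on the control arrays. Slc4a1, the anion exchanger band 3 of the red cell membrane, had 4.35 and 12.6 on the hypomorph arrays, against 28.0 and 3.51 on the control arrays. Hemgn, a nuclear protein of erythroid precursors, was tested and had 62.4 and 45.1 on the hypomorph arrays, against 43.2 and 50.04 on the control arrays, so that the groups overlapped (log2 change 0.18, adjusted p 0.772 in limma). The embryonic globin genes Hba-x, Hbb-y and Hbb-bh1 were all below the limit, with summed signals of 15.0 and 28.4 on the hypomorph arrays, against 13.5 and 35.8 on the control arrays.

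Among haem synthesis genes, 12 of 14 were tested, with log2 changes of -0.32 to 0.40 and a median of 0.15. The smallest p-value was that of Tmem14c, a mitochondrial membrane protein needed for porphyrin transport, with signals of 512 and 548 on the hypomorph arrays, against 395 and 407 on the control arrays (log2 change 0.40 ± 0.13 SE, adjusted p 0.306 in limma). Alad, the second enzyme of the pathway, was at 0.33 (adjusted p 0.448), and Slc25a38, a mitochondrial glycine carrier, at 0.36 (adjusted p 0.409). Of 16 transcription factor genes 11 were tested, with a median of -0.035. Zfpm1, which encodes the GATA1 partner FOG1, was at 0.36 (adjusted p 0.373). Lmo2, which joins GATA1 to TAL1 in a complex, was at -0.63, with signals of 30.7 and 22.6 on the hypomorph arrays, against 51.0 and 34.7 on the control arrays (adjusted p 0.411). The hypomorph mean of Lmo2, 4.84 on the log2 scale, was just below the limit for testing of 4.87, and its control mean, 5.47, above it. With single arrays left out, Alad ranged from 0.20 to 0.47, Slc25a38 from 0.16 to 0.56, Zfpm1 from 0.22 to 0.50 and Lmo2 from -0.89 to -0.37.

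Iron and erythropoietin genes held the smallest p-values of the 8 lists, with 12 of 15 genes tested and a median log2 change of 0.22. Tfrc, the transferrin receptor that brings iron into dividing cells of many kinds, read 649 and 616 on the hypomorph arrays, against 420 and 470 on the control arrays (log2 change 0.51 ± 0.14 SE, adjusted p 0.268 in limma). Epor, the erythropoietin receptor, had 35.2 and 49.96 on the hypomorph arrays, against 28.6 and 11.5 on the control arrays (log2 change 1.10 ± 0.43 SE, adjusted p 0.333). The mean log2 value of Epor was 5.47 in the hypomorph and 4.36 in the control, against a limit for testing of 4.87. Epor thus entered the test only through the group where it was high, and its difference is to be read with that limit. Ireb2, an iron-sensing regulator of mRNAs, and Stat5b, which signals below cytokine receptors, were both at 0.44 (adjusted p 0.306 and 0.322). Over the whole list, both hypomorph arrays were above both controls for 6 of the 12 tested genes, beside 47.6% of all tested genes. Epor was at 0.52 without control replicate 2 and at 1.69 without control replicate 1, and Stat5b was at 0.67 and 0.20 in the same settings, while Ireb2 ranged from 0.35 to 0.53 with single arrays left out.

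Red cell membrane and skeleton genes had a median log2 change of 0.14 with 10 of 23 tested. Ank1, the ankyrin that ties the membrane to spectrin, read 36.6 and 42.1 on the hypomorph arrays, against 10.95 and 33.6 on the control arrays (log2 change 0.93 ± 0.46 SE, adjusted p 0.383 in limma). It was at 0.21 without control replicate 1 and at 1.65 without control replicate 2. The control mean of Ank1, 4.45 on the log2 scale, was below the limit for testing of 4.87, and its hypomorph mean, 5.38, above it. Ank1 thus entered the test only through the group where it was high. Slc29a1, a nucleoside transporter found in many cells, was at 0.44 (adjusted p 0.312). Reticulocyte and late erythroid genes had a median of 0.20 with 12 of 24 tested, where Hk1, a hexokinase, was at 0.32 (adjusted p 0.353) and the peroxide-removing enzymes Cat and Prdx2 were each at 0.28 (adjusted p 0.385 and 0.393). Of the genes that clear haem and haemoglobin 5 of 10 were tested, with a median of -0.0058. Blvra, a biliverdin reductase, was at 0.45 (adjusted p 0.317) and Lrp1, a receptor for the haem carrier haemopexin, at -0.70 (adjusted p 0.401). The hypomorph mean of Lrp1, 4.56 on the log2 scale, was below the limit for testing, and its control mean, 5.26, above it. With single arrays left out, Lrp1 ranged from -1.02 to -0.37, Slc29a1 from 0.24 to 0.64, Cat from 0.16 to 0.39 and Prdx2 from 0.17 to 0.39. Quantile normalization, which brought the median over tested probe sets from 0.16 to 0.01, gave -0.70 for Lrp1 and 0.22 for Slc29a1. In that setting Cat was at 0.042 and Prdx2 at 0.094. Next to Bpgm in metabolism, 4 of 8 phosphoglycerate enzymes were tested, at log2 changes of 0.26 to 0.34, with Pgam1 and Minpp1 at 0.34 each (adjusted p 0.333 and 0.363). The carbonic anhydrases other than Car2 were mostly dim, with 3 of 15 tested at -0.021 to 0.29.

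**Figure D4:**
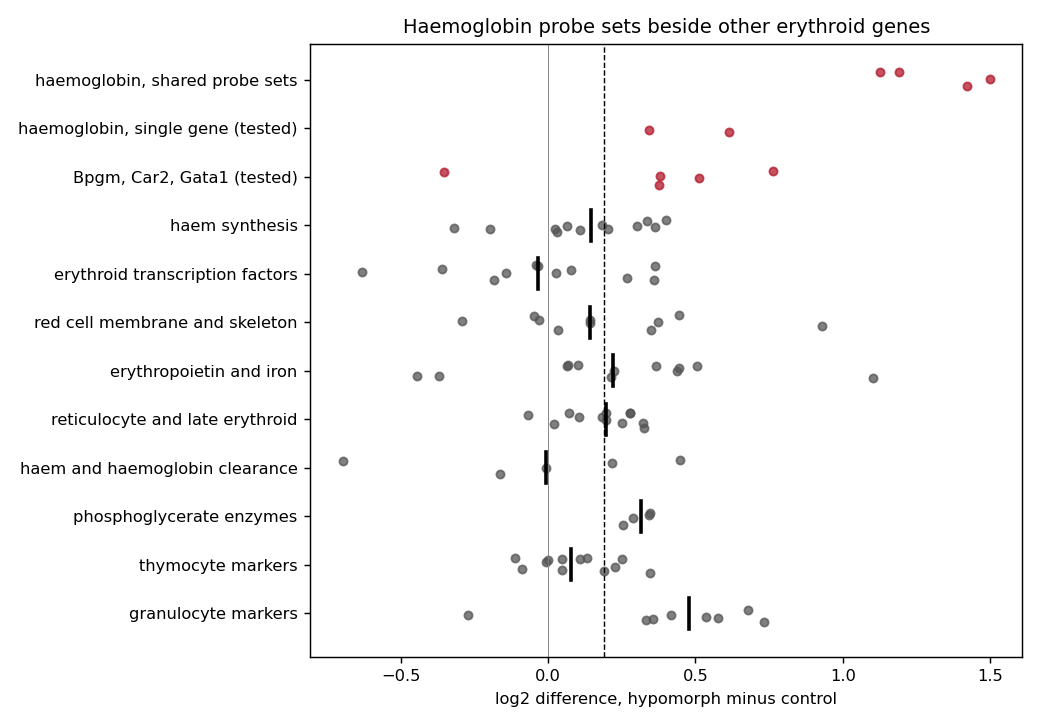
Log2 difference, hypomorph minus control (x axis), of the 4 shared haemoglobin probe sets, the tested probe sets of 1 haemoglobin gene and of the other members (red points), and of tested genes of 9 other lists (grey points, black bars at their medians), with the dashed line at 0.19, the median of all tested genes. The shared haemoglobin probe sets lie at 1.12 to 1.50, and of the genes plotted in grey Epor lies farthest right at 1.10. The control means of Epor and Ank1 (0.93), and of the haemoglobin probe sets 1417714_x_at and 1427219_at, were below the limit for testing.

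The variation of haemoglobin over the arrays was set against that of every other tested probe set with 1 gene symbol. Likeness was measured as the root mean square distance, over the 4 arrays, between log2 values after subtraction of each probe set's mean, with the mean of the 6 tested haemoglobin probe sets as the pattern. Of these, 1417714_x_at and 1427219_at had entered the test only through the hypomorph group, where they were high. The closest genes were Tatdn1, Nmral1, Fam133b, Mxd3, Ezr and Csrp2, at distances of 0.058 to 0.10, against a median distance of 0.46. Tatdn1, named as a putative deoxyribonuclease, read 149 and 183 on the hypomorph arrays, against 85.6 and 83.8 on the control arrays. Mxd3, a transcription factor of the MYC and MAX network, had 134 and 185 on the hypomorph arrays, against 88.7 and 82.96 on the control arrays. The log2 differences of the 6 genes were 0.86 to 0.96, beside 1.03 for the mean pattern, which includes the dim Hba-a2 and Hbb-b2 probe sets. As the 6 were picked for nearness to the pattern, differences close to its own follow from the choice. Csrp2 had a control mean of 4.58 on the log2 scale, below the limit for testing of 4.87, and a hypomorph mean of 5.49. The shared probe sets 1417184_s_at and 1428361_x_at ranked 8 and 15 of the 22519 by this distance, while the shared probe sets 1452757_s_at and 1417714_x_at ranked 235 and 1566. The Hba-a2 probe set 1427219_at ranked 862 and the Hbb-b2 probe set 1427865_at ranked 8139. The 3 Bpgm probe sets ranked 1021, 4906 and 7554, Car2 ranked 3502 and Gata1 ranked 21109. The haemoglobin probe sets entered the pattern, so their ranks are a description.

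Markers of other blood cells were also summed by array. Granulocyte markers, of which 11 of 12 were named and 8 tested, summed to 2283 and 3906 on the hypomorph arrays, against 724 and 6066 on the control arrays. S100a8 read 1046 and 1844 on the hypomorph arrays, against 320 and 2852 on the control arrays. The 8 tested genes had a median log2 difference of 0.48, and the groups overlapped for each of them. Control replicate 1 was thus lowest by the granulocyte sum and by the sum of the shared haemoglobin probe sets. In scaled signals, control replicate 2 was highest by the granulocyte sum and hypomorph replicate 2 by the haemoglobin sum. Single granulocyte genes could differ from the sum, as Mmp9 did with its highest signal, 56.0, on hypomorph replicate 2. Megakaryocyte and platelet markers, 8 of 10 named and 4 tested, summed to 232 and 216 on the hypomorph arrays, against 302 and 235 on the control arrays, with a median log2 difference of -0.14. B cell markers, 7 of 8 named and 6 tested, summed to 452 and 489 on the hypomorph arrays, against 584 and 713 on the control arrays, with a median log2 difference of -0.46. Macrophage markers, with 10 of 10 named and 8 tested, summed to 698 and 413 on the hypomorph arrays, against 736 and 621 on the control arrays, with a median log2 difference of -0.30. Markers of mast cells, basophils and eosinophils, which can also express Gata1, had 11 of 11 named and 2 tested and summed to 227 and 187 on the hypomorph arrays, against 163 and 205 on the control arrays, with a median log2 difference of 0.42. Of the 2, Kit, a receptor also found on early thymocytes and other progenitors, had 66.3 and 44.9 on the hypomorph arrays, against 37.2 and 26.2 on the control arrays, without overlap (log2 change 0.76 ± 0.32 SE, adjusted p 0.352 in limma), and Cpa3 was at 0.077. The part of such cells in the haemoglobin difference was not tested.

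**Figure D5:**
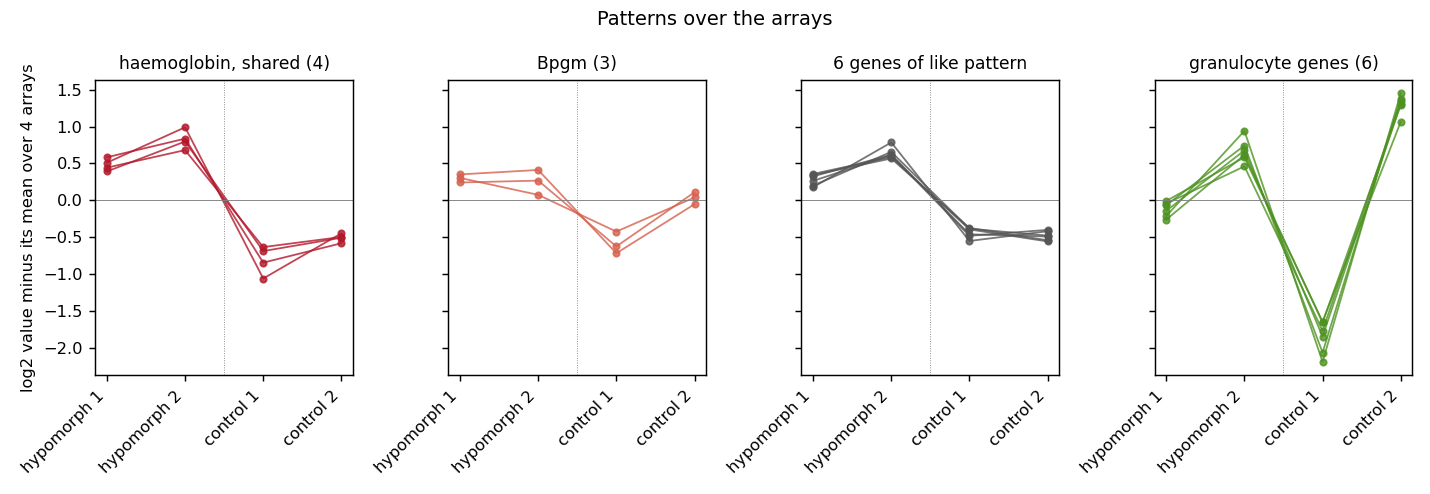
Log2 value minus its mean over the 4 arrays (y axis) for the 4 shared haemoglobin probe sets, the 3 Bpgm probe sets, the 6 genes of like pattern and 6 granulocyte genes, by array (x axis). Lines join the values of 1 probe set and imply no order of the replicates. Haemoglobin is below its mean on both control arrays, while the 6 granulocyte genes are lowest on control replicate 1 and highest on control replicate 2.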

How the data were processed

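Biotin-labelled RNA of total thymocytes from 2 hypomorph and 2 control mice was hybridised to Affymetrix arrays, per the labels' protocols. The authors deposited a linear intensity for every probe set, computed with GCOS per the submitters' processing notes. Neither the software's version nor its scaling target is known here. Of 45101 probe sets, 64 Affymetrix controls were left out, and of those kept 34945 carried 1 symbol, 932 several and 9160 none.

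Because median log2 signals spanned 0.71 over the arrays, above a limit of 0.3, each array was scaled to the common median before log2(signal + 2.29) was taken. That pseudocount is the 10th percentile of all signals. Probe sets whose mean reached the 50th percentile of means entered limma 3.58.1 under R 4.3.3, with lmFit, eBayes and a trend in the variance. Tests were two-sided, without covariates, and adjusted by Benjamini-Hochberg with a threshold of 0.05. For a single value, permuting 2 against 2 arrays exactly gives no p under 0.333. The procedure was run on simulated data whose variances were drawn from limma's own fitted trend, so that run could not check the trend itself. The number of arrays limits the precision.

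Member genes, lists and tests were chosen with earlier results of these data known. All member probe sets are described. From each other list, genes that passed or else up to 4 with the smallest p are named, not all of them in the text, the 6 genes closest in pattern to haemoglobin are named, and further markers of erythroid cells, S100a8 and summed lists are given as levels. Motifs were counted with exact letter matches, and the globin windows were aligned with Biopython 1.88.

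Alternatives were other scalings, pseudocounts and filters, no variance trend, a replicate block, each array left out and, for gene lists, the mean of a gene's probe sets. Centring after the pseudocount was chosen after the data were seen.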

Additional observations from a re-analysis of the deposited data

How the results depend on the processing

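The number of called probe sets depended on the processing, while the median log2 difference of the 8 haemoglobin probe sets (0.87) stayed within 0.71 to 1.21 under every alternative and within 0.71 to 1.02 with single arrays left out. Of all tested probe sets 12 were called, 9 higher and 3 lower in the hypomorph. The counts were 4 (3 higher, 1 lower) with quantile normalization, 7 (4 higher, 3 lower) with centring on the tested probe sets, 84 (73 higher, 11 lower) without scaling, 3 (3 higher, 0 lower) without the filter, and 0 (0 higher, 0 lower; 2200 at an unadjusted p under 0.05) in limma without the variance trend. The share of higher calls was 75%, against 57.1% with centring on the tested probe sets and 86.9% without scaling. With single arrays left out, 16 to 229 were called, 9 to 134 higher and 1 to 95 lower, the most without hypomorph replicate 1, when a lone hypomorph array is assumed to vary like the controls. With the replicate number as a block, 6 were called (5 higher, 1 lower), 2 of them haemoglobin probe sets. The numbers were not taken to pair the arrays, as the labels name nothing that same-numbered animals share, and the differences between replicates 1 and 2 correlated at 0.08 between the groups across probe sets. Signs turned for Urod (-0.043) and Hmox2 (-0.011) with quantile normalization, and for Slc48a1 (0.18 without scaling, and -0.47 to 0.14 with single arrays left out, turned without hypomorph replicate 2), none of which was called. The adjusted p of Atg16l1 ranged from 0.00159 to 0.235 over the alternatives, its log2 change staying below 0. The cause of these changes was not tested. Dim probe sets, Alas2 and Klf1 among them, lie near the background, where differences cannot be read.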
